A study of Homo sapiens with 4 samples.

Results

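The promoters of noncoding genes are active promoter elements, shorter than 10000 bp, whose nearest gene carries a name given to genes without a known protein product. They were taken from a table of RNA contacts with enhancers and promoters in K562 cells, by 3 kinds of name: LINC names, antisense names (with -AS) and clone names (AC, AL or AP followed by a number). This gave 1032 promoters of 1011 genes, out of 9831 promoters of that length, 10076 promoters of any length and 33948 elements in all. Of the 1032, 229 had LINC names, 62 antisense names and 741 clone names, and the remaining 8799 promoters of that length are called the other promoters. The choice was by name and length only. The deposited table typed 983 of the 1032 genes' promoters as lncRNA and 49 as protein_coding, 47 of them with clone names, so the name does not always match the type. Conversely, 100 of the other promoters were typed lncRNA under other names. The length limit kept AC124319.1 (9724 bp, 2 RNAs in R320* and 2 in WT) and left out AL592295.3 (10020 bp, 2 RNAs in R320* and 1 in WT), and 13 promoters with such names were left out by length.

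GRID-seq ligates RNA and neighbouring DNA to a shared linker in fixed nuclei and so records which RNA lay at which genomic place. It was run in K562, a human leukaemia line with the BCR-ABL1 fusion. The cells had the genotype RUNX1 R320*, which truncates this blood transcription factor after its DNA-binding domain, or WT, with 2 libraries each and 4 in all. Both genotypes were fixed alike, with 2 mM DSG for 45 minutes and 3% formaldehyde for 10 minutes. Whether the libraries came from separate cultures, and whether the R320* cells were 1 clone or several, is not stated in the labels. The libraries of a genotype stand as 1 deposited score per RNA and element, so no genotype difference below has a replicate spread or a test. Depth is unknown.

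A listed contact is called a connection, and it is local, cis (same chromosome) or trans (another chromosome) as the table types it. A score is either 0 or above 1.2, and 0 means not listed rather than measured as absent. The table held 115357 connections of 2637 RNAs, 84992 of them listed in R320* and 82454 in WT, and 4104 lay at promoters of noncoding genes. Of 12 K562 marker genes, 6 were listed as RNAs (HBG2, HBE1, TFRC, LMO2, BCR and ABL1), GATA1, KLF1 and TAL1 among the rest were not, and 0 of 9 genes of other blood cells and 0 of 4 non-blood genes were listed. Percentages carry 95% Wilson intervals in brackets, which cover counting only; neighbouring promoters share RNAs and are not independent.

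Long noncoding RNAs are transcribed by RNA polymerase II from promoters much like those of coding genes, and many begin at or near the promoter of a coding gene on the opposite strand. Many stay on chromatin close to where they are made and are present at few copies per cell, whereas a few, such as MALAT1 and NEAT1, are abundant in the nucleus and touch many genomic sites. RUNX1 binds DNA with its partner CBFB at short sites with the core letters TGTGGT or TGCGGT, and acts with GATA factors in blood cells.

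Promoter sequences from RefSeq (GRCh38.p14, the coordinates of hg38) show what kind of DNA stands behind these elements. A window of 250 bases before and 50 after the gene's start was found by symbol for 194 of the 1032 promoters, and 110 of these windows overlapped their element (85 LINC and 25 antisense). Clone-named genes had no window. Below are promoters whose RNAs differed between genotypes (LINC01914, LINC01719, LINC01234 and WT1-AS), and OIP5-AS1, which met 1 RNA, listed in both genotypes. Also shown are the promoter that shared most with a coding neighbour (LINC00957) and one that met the RNA of its sense gene (EP300-AS1). Capitals mark TGTGGT or TGCGGT on either strand, so the reverse complements ACCACA and ACCGCA are also in capitals. LINC01914 is chr2:41933674-41933973 on the minus strand, OIP5-AS1 is chr15:41283740-41284039 on the plus strand, LINC01719 is chr1:146052346-146052645 on the plus strand, and LINC00957 is chr7:44038799-44039098 on the plus strand. LINC01234 is chr12:113773634-113773933 on the minus strand, WT1-AS is chr11:32435268-32435567 on the plus strand, and EP300-AS1 is chr22:41197452-41197751 on the minus strand.
LINC01914: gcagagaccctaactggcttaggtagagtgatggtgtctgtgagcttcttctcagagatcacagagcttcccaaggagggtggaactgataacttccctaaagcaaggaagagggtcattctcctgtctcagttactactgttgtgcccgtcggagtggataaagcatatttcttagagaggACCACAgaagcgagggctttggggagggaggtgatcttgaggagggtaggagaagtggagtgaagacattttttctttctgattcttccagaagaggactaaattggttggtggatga
OIP5-AS1: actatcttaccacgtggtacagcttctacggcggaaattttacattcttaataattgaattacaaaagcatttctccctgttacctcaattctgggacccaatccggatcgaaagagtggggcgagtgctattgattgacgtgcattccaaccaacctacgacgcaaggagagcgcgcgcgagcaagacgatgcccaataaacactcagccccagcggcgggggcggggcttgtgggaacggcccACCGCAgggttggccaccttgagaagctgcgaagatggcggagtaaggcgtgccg
LINC01719: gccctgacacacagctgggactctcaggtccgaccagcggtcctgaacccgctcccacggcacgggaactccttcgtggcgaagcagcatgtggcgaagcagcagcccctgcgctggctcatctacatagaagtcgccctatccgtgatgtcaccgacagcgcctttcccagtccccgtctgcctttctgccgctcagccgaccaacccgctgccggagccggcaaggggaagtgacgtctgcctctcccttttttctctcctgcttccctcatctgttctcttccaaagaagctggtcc
LINC00957: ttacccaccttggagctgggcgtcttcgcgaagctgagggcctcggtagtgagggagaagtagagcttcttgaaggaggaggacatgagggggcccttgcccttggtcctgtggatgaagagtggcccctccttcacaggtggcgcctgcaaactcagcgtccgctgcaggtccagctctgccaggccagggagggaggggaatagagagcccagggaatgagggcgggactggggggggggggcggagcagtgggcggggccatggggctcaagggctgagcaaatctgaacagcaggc
LINC01234: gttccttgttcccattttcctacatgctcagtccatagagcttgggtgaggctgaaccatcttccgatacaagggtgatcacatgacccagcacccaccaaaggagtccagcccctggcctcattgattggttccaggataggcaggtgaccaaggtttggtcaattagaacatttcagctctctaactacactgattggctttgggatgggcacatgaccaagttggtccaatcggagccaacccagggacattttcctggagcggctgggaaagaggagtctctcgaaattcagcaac
WT1-AS: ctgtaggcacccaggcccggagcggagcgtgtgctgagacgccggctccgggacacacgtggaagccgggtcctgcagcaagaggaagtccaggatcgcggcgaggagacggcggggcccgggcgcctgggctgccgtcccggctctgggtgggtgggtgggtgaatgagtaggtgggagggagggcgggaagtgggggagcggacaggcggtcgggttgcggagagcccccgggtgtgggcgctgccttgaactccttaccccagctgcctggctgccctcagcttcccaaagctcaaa
EP300-AS1: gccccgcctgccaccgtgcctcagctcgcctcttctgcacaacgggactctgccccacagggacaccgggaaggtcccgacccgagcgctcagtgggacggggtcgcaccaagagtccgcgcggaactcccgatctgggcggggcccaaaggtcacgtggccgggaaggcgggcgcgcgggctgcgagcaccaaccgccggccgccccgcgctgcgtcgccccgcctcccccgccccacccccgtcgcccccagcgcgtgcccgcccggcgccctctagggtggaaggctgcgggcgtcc

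LINC01914 and OIP5-AS1 each held 1 such match, and the other sequences shown held none of these letters. Over all windows, TGTGGT or TGCGGT was found on either strand in 32 of 110 windows of noncoding genes, 29.1% (21.4 to 38.2), and in 1031 of 5744 windows of other promoters, 17.9% (17.0 to 19.0). TGTGGT alone was in 17.3% and 8.37%, and TGCGGT alone in 13.6% and 10.6%. The letters AGATAA, which GATA factors read, were in 9.09% and 4.58%. GGGCGG, read by SP1-type factors, was in 47.3% and 75.5%. The windows of noncoding genes were also poorer in G and C, with a median of 60.5% against 66.7%, and had a median of 15 CpG pairs against 28. Below 55% G and C the RUNX letters were in 14 of 36 windows of noncoding genes (38.9%) and in 19.6% of other windows, from 55% to 65% in 7 of 39 (17.9%) and 19.6%, and above 65% in 11 of 35 (31.4%) and 16.7%. A match describes the letters only and shows no binding.

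With all lengths pooled, promoters of noncoding genes met about as many RNAs as other promoters. Promoters without a listed RNA are absent from both groups, so these numbers describe listed promoters only. Their mean was 3.98 RNAs over both genotypes, against 3.79 at other promoters, and the median was 3 in each. Without 1 promoter, AP000769.3, which met 190 RNAs, the mean was 3.80. In R320* cells the mean was 2.91 RNAs against 2.83 at other promoters, and in WT cells 2.76 against 2.69. A single RNA was met by 25.6% (23.0 to 28.3), against 22.8% (21.9 to 23.7) of other promoters, and 5.81% (4.54 to 7.41) met 10 or more, against 4.61% (4.20 to 5.07). The elements were shorter, with a median of 1606 bp against 2997 bp. By length, the mean was higher at promoters of noncoding genes from 500 to 1000 bp, at 4.21 against 3.36. It was also higher from 1000 to 2000 bp and from 2000 to 4000 bp. Up to 500 bp it was 3.01 against 3.07, and from 4000 to 10000 bp 5.74 against 4.64, or 4.55 without AP000769.3. From 500 to 1000 bp 20.8% met a single RNA, against 29.1%, and in the other classes these shares lay closer together. Antisense promoters stood apart from the other name classes, since 26 of 62, or 41.9% (30.5 to 54.3), met a single RNA, against 25.8% of LINC and 24.2% of clone-named promoters. The table runs through the chromosomes 2 times, and within each run the single-RNA shares lay closer together, with intervals of the difference that include 0. In the first run the share was 21.98% against 21.2% of other promoters, and in the second 36.6% against 37.4%. The second run held 254 of the 1032 promoters of noncoding genes, against 844 of the 8799 others.

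**Figure D1:**
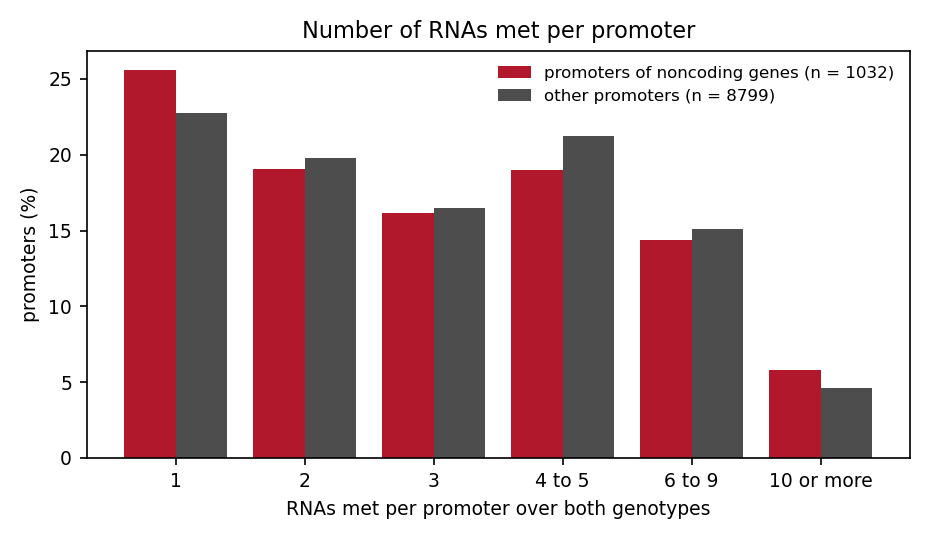
Share of promoters (y axis, percent) by the number of RNAs met over both genotypes (x axis), for 1032 promoters of noncoding genes and 8799 other promoters. The bars for 1 RNA are 25.6% and 22.8% high, and those for 10 or more 5.81% and 4.61%.

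After AP000769.3, the promoters with most RNAs were mainly on chromosome 7. Other promoters of chromosome 7 also met many RNAs, with a mean of 6.13, against 6.85 at promoters of noncoding genes there. AC087071.1 (chromosome 7, 130141675 to 130142319) met 45 RNAs, 33 in R320* and 33 in WT, of which 21 were listed in both. LINC00957 (chromosome 7, 44036193 to 44039441) met 32, with 21 in R320* and 21 in WT, and AC084864.1 on the same chromosome met 27, with 19 in R320* and 22 in WT. AL023693.1 (chromosome 6, 135257933 to 135258276) met 25, with 17 in R320* and 14 in WT. Its highest score was for MYB, a transcription factor of blood progenitors, at 2.87 in R320* and 2.83 in WT. Of the other RNAs listed there in both genotypes, REPS1 scored 2.68 in R320* and 2.39 in WT, and HBS1L, a neighbour of MYB, scored 2.65 in R320* and 2.47 in WT. AHI1, also a neighbour of MYB, scored 2.37 in R320* and 2.32 in WT. AL391832.1 on chromosome 1 met 20 RNAs (15 in R320* and 8 in WT, with TBCE counted under 2 identifiers), AC004917.1 on chromosome 7 met 20 (12 in R320* and 20 in WT), and LINC01344 on chromosome 1 met 18 (13 in R320* and 10 in WT).

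The clearest difference from other promoters was in the RNA of the promoter's own gene. It was listed at 62 of 1032 promoters of noncoding genes, 6.01% (4.71 to 7.63), and at 1935 of 8799 other promoters, 21.99% (21.1 to 22.9). The share was 8.30% for LINC, 11.3% for antisense and 4.86% for clone names. It was below that of other promoters on 21 of the 22 chromosomes with at least 10 such promoters, and in every length class: 2.92% against 9.69% up to 500 bp, and 13.5% against 31.5% from 4000 to 10000 bp. Most noncoding genes were not listed as an RNA anywhere in the table: 76 of the 1032 promoters had a gene that was, 7.36%, against 24.3% of other promoters. Where the gene was listed as an RNA, its own promoter was among the contacts in 62 of 76 cases, 81.6% (71.4 to 88.7), against 90.5% (89.2 to 91.7).

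**Figure D2:**
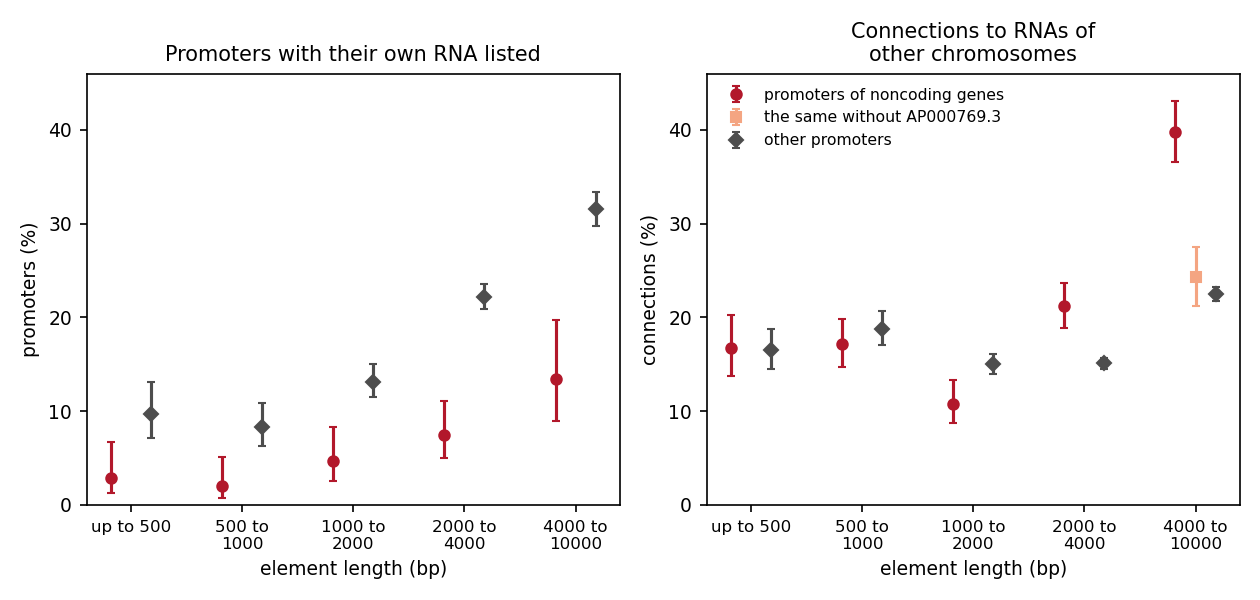
Share of promoters with their own RNA listed (left, percent) and share of connections to RNAs of other chromosomes (right, percent) by element length (x axis, bp), with 95% Wilson intervals as bars, for promoters of noncoding genes and other promoters. Own-RNA shares are lower at promoters of noncoding genes in every length class, and the trans share of 39.8% in the longest class is 24.3% without AP000769.3.

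Own-RNA scores were close in both genotypes. Of the 62 own-RNA connections, 46 were listed in both genotypes (74.2%, interval 62.1 to 83.4, against 82.4% at other promoters), 9 in R320* only and 7 in WT only. The 46 had median scores of 2.14 in R320* and 2.09 in WT, and 43 of them differed by less than 0.2. LINC01344 was highest, at 3.43 in R320* and 3.49 in WT, in a connection typed cis. AC139887.2 on chromosome 4 followed at 3.20 in R320* and 3.25 in WT, and AC006369.1 on chromosome 2 at 2.85 in each. AL021155.2, LINC01287, AC139491.2, LINC00958 and AC118549.1 made up the rest of the highest 8, with scores between 2.47 and 2.87. The widest gap among the 46 was at AC078845.1, with 1.57 in R320* and 1.88 in WT.

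**Figure D3:**
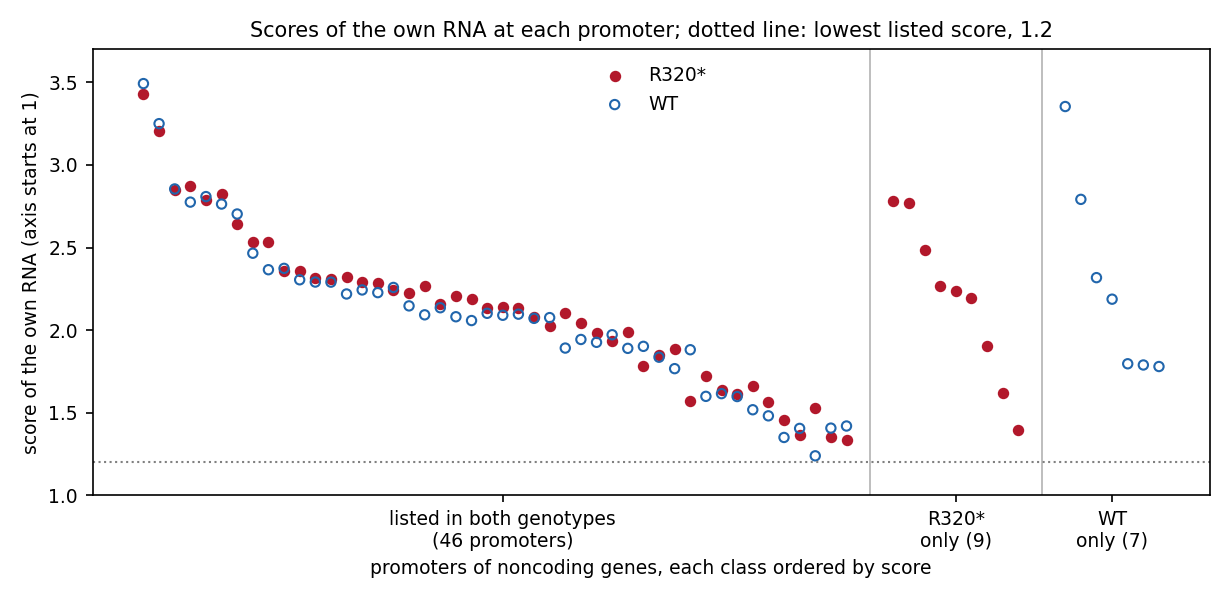
Score of the own RNA (y axis, from 1) at each of 62 promoters of noncoding genes, in R320* (filled) and WT (open), for the 46 listed in both genotypes, the 9 in R320* only and the 7 in WT only. The paired points nearly coincide, and the single ones reach 2.78 in R320* and 3.35 in WT.

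The 16 own-RNA connections of 1 genotype were not all near the lowest listed score of 1.2. Those in R320* only ran from 1.40 to 2.78, with BBOX1-AS1 at 2.78 and LINC00648 at 2.77. Those in WT only ran from 1.78 to 3.35, with AL646090.2 at 3.35 and AC139493.2 at 2.79. A further 14 promoters belonged to genes listed as RNAs elsewhere but not at that element. They include the sources of some of the most widespread RNAs: LINC02476 had 1000 connections in the table, AC097528.1 had 955, AC004949.1 had 410 and AC099520.1 had 337. STXBP5-AS1 RNA had 11 connections, 6 of them local to elements other than this promoter.

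The RNA of the gene on the opposite strand was listed at a minority of antisense promoters. Of the 62 antisense promoters, 11 had a sense gene that was listed as an RNA anywhere, and that RNA was listed at all 11, in both genotypes at 10. The antisense gene's own RNA was listed at 7 of the 62, and at 1 of these 11. RNF157 scored 3.04 in R320* and 2.94 in WT at RNF157-AS1. The DNA repair adaptor PAXIP1 scored 2.63 in R320* and 2.57 in WT at PAXIP1-AS2. EP300, a histone acetyltransferase, was the single RNA at EP300-AS1, at 2.48 in R320* and 2.60 in WT. LCMT1, SREBF2, ZNRF3, CRTC3 and STXBP5 lay between 1.48 and 2.44. TTN, the giant muscle protein, was the exception, with 2.68 in WT and no listing in R320*, while the own RNA of TTN-AS1 scored 2.14 in R320* and 2.09 in WT.

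Contacts typed local were few. Promoters of noncoding genes had 90 local connections, 61 of them to the own RNA, and other promoters had 2316, of which 1919 were to the own RNA. The other 29 lay at 27 promoters, and 14 of them were to coding RNAs. PPP4R3B, a regulatory subunit of protein phosphatase 4, scored 3.08 in R320* and 3.01 in WT at AC015982.1. NAP1L4 at AC131971.1 scored 2.42 in R320* and 2.37 in WT, and PTPN11, the phosphatase SHP2, scored 2.64 at AC004086.1 in WT only. Of these 29 connections, 17 were listed in both genotypes.

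The RNAs met came mostly from the surrounding chromosome. Of the 4104 connections, 75.7% were cis (74.4 to 77.0), against 75.1% at other promoters, and 2.19% local, against 6.95%. For the 2972 of 3198 local and cis connections whose RNA gene could be placed, the median distance was 555 kb, against 468 kb. Fewer lay under 100 kb, 16.2% against 21.2%, and fewer had the element inside the gene, 1.48% against 8.18%. Local and cis connections include those to the own RNA, 62 here and 1937 at other promoters. These distance shares are therefore not separate from the own-RNA difference. Clone-named RNAs such as AC097528.1 and AC104389.4 could not be placed by symbol. Of the 62 own-RNA connections here, 36 were to clone-named genes, so some may be missing from the distances. The effect of this on the distance shares was not tested. The nearest promoter of another gene was a median of 62165 bp away, and 61.9% of the RNAs met were also listed there, against 60.6% at other promoters. Within 10 kb of such a neighbour the shared part was 86.6% of connections (124 promoters), against 67.2%, from 10 to 100 kb 60.8% against 60.1%, and beyond 100 kb 54.0% against 58.7%. LINC00957 shared 30 of its 32 RNAs with the DBNL promoter 4307 bp away, and LINC01154 shared 7 of 8 with the ITGA5 promoter at 4429 bp. MRPL23-AS1 shared 2 of 7 with the H19 promoter at 12391 bp.

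RNAs met at these promoters were long noncoding in 16.0% of connections (14.9 to 17.2), against 12.5% (12.1 to 12.9) at other promoters. The cis part held 8.82% against 6.91%, whereas the trans part held 34.8% against 39.1%, or 41.5% without AP000769.3. In all, 1668 RNA symbols were listed at these promoters, 745 at a single one and 31 at 10 or more. NEAT1, the scaffold of paraspeckles, was met by 57 promoters, 5.52% against 6.64% of other promoters, and was listed at 34 of them in R320* and 31 in WT. MALAT1, a nuclear speckle RNA, was met by 45, 4.36% against 2.52%, with 30 in R320* and 31 in WT. LINC02476 was met by 43, AC097528.1 by 40 and AC004936.1 by 34. LMAN1, a cargo receptor of the secretory pathway, was met by 26 and PRKCB, a protein kinase C, by 22. AC099520.1 was met by 20 promoters, all in WT and none in R320*, and by 82 other promoters, also in WT only.

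With all lengths pooled, the trans share was higher at promoters of noncoding genes, mostly through 1 element. Trans connections were 906 of 4104, 22.1% (20.8 to 23.4), against 17.9% (17.5 to 18.4) at other promoters. Without AP000769.3 the share was 18.4% (17.2 to 19.7). The deposited table runs through the chromosomes 2 times with different elements, and in its second run the direction turned, with 15.6% at promoters of noncoding genes and 17.6% at other promoters. For antisense names alone the share was 17.2%. At least 1 trans RNA was met by 34.9% of these promoters and 32.9% of other promoters, and 4.26% against 3.85% met trans RNAs alone.

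AP000769.3 (chromosome 11, 65481104 to 65489544) lies between NEAT1, 35564 bp away, and MALAT1, 8194 bp away. It met 190 RNAs, 122 in R320* and 123 in WT, with 55 listed in both, and 185 of them were trans, 20.4% of all trans connections of these promoters. All 190 were also listed at the MALAT1 promoter, making up 68.1% of the 279 there, and 187 at the MALAT1 enhancer. The MALAT1 promoter is longer than the limit and is not among the other promoters. MALAT1 itself scored 2.21 in R320* and 2.28 in WT, and NEAT1 1.78 in R320* and 1.79 in WT. The strongest trans RNAs were AC010654.1 at 3.14 in R320* and 3.11 in WT, FAM178B at 2.98 in R320* and 3.11 in WT, CREBBP, a histone acetyltransferase, at 2.98 in R320* and 3.04 in WT, and LETM1 at 2.97 in R320* and 2.95 in WT. The scores of the 55 shared RNAs differed by a median of -0.03 (SD 0.28 over RNAs, R320* minus WT).

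Elsewhere the strongest trans connections listed in both genotypes had nearly equal scores. MAD1L1, a spindle checkpoint gene of chromosome 7, scored 4.19 in R320* and 4.29 in WT at LINC01659 on chromosome 22. KMT2C, a histone methyltransferase gene of chromosome 7, scored 4.21 in R320* and 4.20 in WT at AP000547.3 on chromosome 22. Parts of KMT2C have near-identical copies elsewhere in the genome, so this value is uncertain. ABL1 of chromosome 9 scored 3.51 in R320* and 3.58 in WT at AC245452.5 on chromosome 22, and K562 cells carry a fusion of these chromosomes. ACSM3 at AC010896.1 scored 3.54 in R320* and 3.76 in WT, PPP6R2 at AP001347.1 3.59 in R320* and 3.36 in WT, and AC021087.5 at AC024937.3 3.88 in R320* and 3.94 in WT. Counted over promoters, MALAT1 had 15 trans connections listed in both genotypes, LMAN1 12, and ABL1, NEAT1 and SKI 7 each.

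Turning to the genotypes, 42.8% of connections (41.3 to 44.3) were listed in both, against 45.8% (45.2 to 46.3) at other promoters. A further 30.5% were in R320* only and 26.7% in WT only, against 29.0% and 25.2% at other promoters. Cis connections were in both genotypes in 50.2% of cases, against 51.0%, local ones in 68.9%, against 81.2%, and trans ones in 14.8%, against 9.90%. The trans value was 11.4% (9.26 to 13.9) without AP000769.3. In the second run of the table, 43.3% of connections at promoters of noncoding genes were in both genotypes, against 42.0% at other promoters. Among the 1756 connections listed in both, the score was higher in R320* by a median of 0.05 (SD 0.25 over connections), and at other promoters also by a median of 0.05 (SD 0.23).

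Single scores rarely moved far. Of the 1756, 2 were at least 1 unit higher in R320* and 1 at least 1 unit lower, where 0.0764% and 0.0647% of all such connections of promoters under the length limit passed these marks. GNAI3, an inhibitory G protein subunit, scored 2.90 in R320* and 1.65 in WT at AL450468.1, and YWHAZ, a 14-3-3 protein, 2.35 in R320* and 1.27 in WT at AP003472.1. TMEM209 at AC084864.1 scored 2.26 in R320* and 1.27 in WT, NPL at LINC01344 2.57 in R320* and 1.62 in WT, PABPC1 at AC018781.1 2.13 in R320* and 1.21 in WT, and GPATCH8 at AC003043.2 2.17 in R320* and 1.29 in WT. Lower in R320* were SMIM8 at AL049697.1, with 2.14 in R320* and 3.14 in WT, and ZNF207 at AC116407.2, with 1.31 in R320* and 2.30 in WT. EYA3 at LINC02574, B3GALNT2 at AL732292.2, SLC25A21 at LINC01087 and AC004083.1 at LINC00534 were lower in R320* by 0.80 to 0.94.

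The number of RNAs per promoter could be set between genotypes at 590 promoters, those listed in both with a mean of at least 2 RNAs. Of these, 222 met more RNAs in R320*, 187 fewer and 181 as many as in WT. At least 2-fold more were met by 79, 13.4% (10.9 to 16.4), where 12.4% of all promoters under the length limit were, and at least 2-fold fewer by 67, 11.4% (9.04 to 14.2), where 9.06% were. LINC promoters had 19 of 130 in each direction, antisense promoters 5 with more and 3 with fewer of 32, and clone-named promoters 55 with more and 45 with fewer of 428. Promoters with RNAs in R320* only numbered 97, or 9.40%, where 9.14% of all were, and those in WT only 92, or 8.91%, where 8.26% were. These shares lie near the background. With a minimum mean of 4 RNAs, 26 of 230 met at least 2-fold more, 11.3% against 7.47% of other promoters. At least 2-fold fewer were then met by 11 of 230, 4.78% against 5.06%. With RNAs listed in both genotypes only, 38 of 553 met at least 2-fold fewer, 6.87% against 5.64%.

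Among promoters that met more RNAs in R320*, AL353747.2 (chromosome 6) had 7 in R320* and 1 in WT, all on its own chromosome. Its shared RNA was AFDN, an adhesion junction protein, at 2.06 in R320* and 1.47 in WT. MRPL23-AS1, next to the imprinted H19 gene on chromosome 11, also had 7 in R320* and 1 in WT. The RNA listed there in both genotypes was KCNQ1OT1, the imprinted antisense RNA of that region, at 1.98 in R320* and 2.15 in WT, and KCNQ1OT1 was listed in both genotypes at each of the 4 promoters of noncoding genes that met it. LINC01914 on chromosome 2 had 6 in R320* and 1 in WT. EML4 was in both, at 1.97 in R320* and 2.17 in WT, and CAMKMT, MAP4K3, MAP4K3-DT, MTA3 and SOS1 were in R320* only, at 1.40 to 1.82. AC074099.1, also on chromosome 2, had 6 in R320* and 1 in WT, with GPD2 in both. WT1-AS (chromosome 11) had 9 in R320* and 3 in WT, and the added RNAs included LMO2, a blood stem cell regulator, at 1.44.

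LINC01719 and LINC01049 met trans RNAs alone. LINC01719 on chromosome 1 had 6 in R320* and 1 in WT. MALAT1 was in both at 1.23 in R320* and 1.24 in WT, while HBE1, the embryonic globin, HBG2, a fetal globin, and OR51B5 were in R320* only at 1.64 to 1.71. LINC01049 on chromosome 13 had 8 in R320* and 2 in WT. NUP214 scored 3.31 in R320* and 2.50 in WT, ABL1 2.77 in R320* and 2.72 in WT, and BCR 2.71 in R320* only. NUP214 and ABL1 are genes of chromosome 9 and BCR is a gene of chromosome 22. Trans means another chromosome of the reference genome, and whether these segments are joined in K562 cells was not tested. HBE1 and HBG2 were listed at the same 9 promoters of noncoding genes. The 3 cis ones, near the globin locus on chromosome 11, were in both genotypes, and HBE1 scored 2.32 in R320* and 2.33 in WT at AC104389.1. Of the 6 trans ones, 5 were in R320* only (LINC01719, LINC01049, LINC00957, AL138720.1 and LINC00896) and 1 in WT only (RDH10-AS1). These genes, OR51B5 and AC104389.4 lie at one locus, so their near-equal scores are not separate observations, and this set was picked after its values were seen. At other promoters HBE1 was in R320* only at 27 and in WT only at 20.

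**Figure D4:**
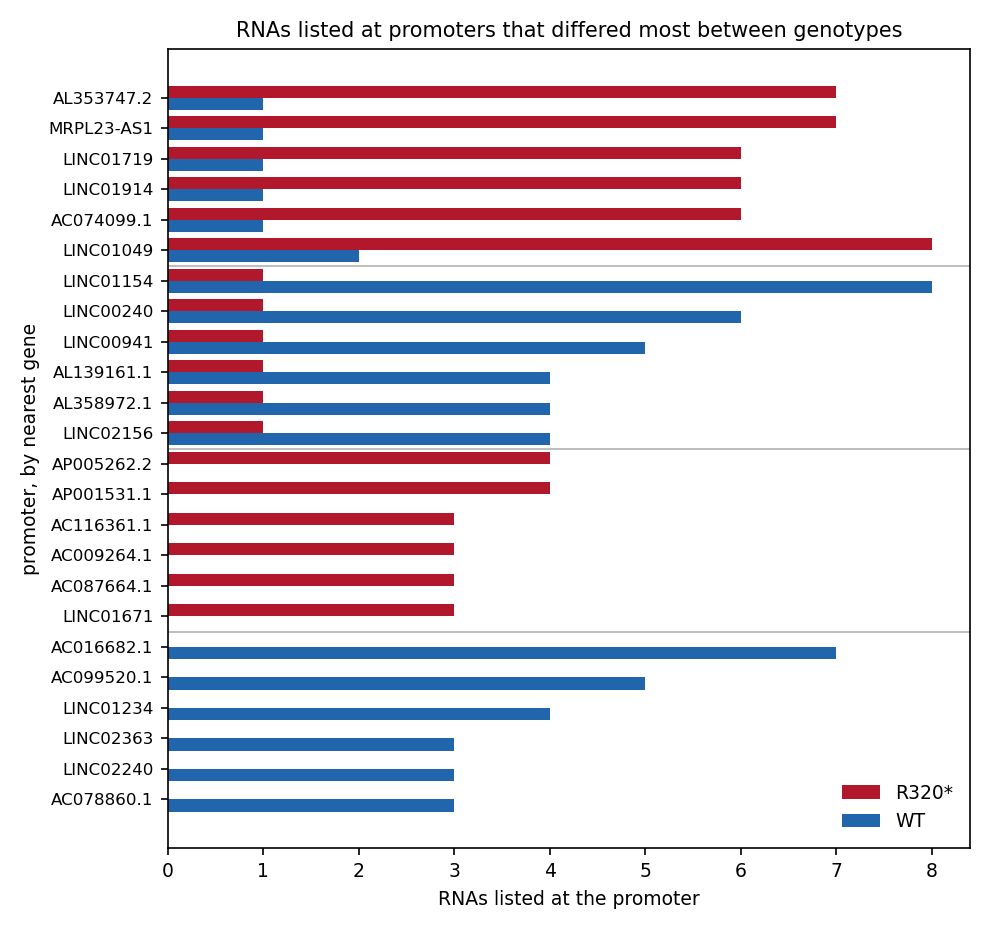
Number of RNAs listed (x axis) in R320* and WT at promoters of noncoding genes: from the top, the 6 with the largest ratio of R320* over WT, the 6 with the smallest, the 6 with most RNAs in R320* only and the 6 with most in WT only. Differences rest on 3 to 8 RNAs per promoter.

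Among promoters that met fewer RNAs in R320*, LINC01154 on chromosome 12 had 1 in R320* and 8 in WT. The RNA in both was CBX5, the heterochromatin protein HP1 alpha, at 1.98 in R320* and 2.36 in WT. LINC00240 on chromosome 6 had 1 in R320* and 6 in WT, all trans: MAST4 of chromosome 5 was in both, at 2.95 in R320* and 3.15 in WT, and BDP1 and ARL15, also of chromosome 5, were in WT only at 3.95 and 2.42. LINC00941 and LINC02156, both on chromosome 12, had 1 in R320* with 5 and 4 in WT, and CCDC91 and PCED1B were the RNAs in both. AL139161.1 and AL358972.1 had 1 in R320* and 4 in WT each.

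Promoters of 1 genotype met few RNAs. In R320* only, AP005262.2 and AP001531.1, both on chromosome 18, met 4 each, with LINC00470 at 2.14 highest at AP005262.2. AC116361.1, AC009264.1, AC087664.1 and LINC01671 met 3 each. In WT only, AC016682.1 on chromosome 2 met 7, all cis, with ORC4, a subunit of the replication origin complex, highest at 2.30 and ZEB2, a repressor of epithelial genes, at 1.62. AC099520.1 met 5 and LINC01234 met 4, one of them its own RNA at 2.19, while LINC02363, LINC02240 and AC078860.1 met 3 each.

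From a list of well-studied noncoding genes, 8 had a promoter here. LINC00467 met 4 RNAs in R320* and 5 in WT, with RCOR3 at 2.56 in R320* and 2.63 in WT. LINC01578 met 4 in each genotype, its own RNA scoring 2.24 in R320* and 2.26 in WT and CHD2, a neighbouring chromatin remodeller gene, 2.01 in R320* and 1.87 in WT. LINC00173 met 1 in R320* and 3 in WT, LINC00659 met 2 in R320* and 1 in WT, LINC01133 met 2 in R320* only and AFAP1-AS1 met 2 in WT only. OIP5-AS1 met 1 RNA in both, INO80, a chromatin remodeller, at 1.67 in R320* and 1.28 in WT. No listed promoter was nearest to a HOX antisense gene of that list.

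RUNX1 RNA was met by 3 of these promoters, all in R320* only: LINC01747 at 1.88, LINC00957 at 1.65 and LINC01426, beside RUNX1 on chromosome 21, at 1.24, close to the listing minimum of 1.2. Of the 13 connections of RUNX1 RNA at other promoters, 8 were listed in R320* only and 5 in WT only. Over all RNAs, 30.5% of the connections of these promoters were listed in R320* only, against 29.0% at other promoters.

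Chromosome 12 held many of the promoters with fewer RNAs in R320*. Its 57 promoters of noncoding genes had 66 connections in R320* and 145 in WT, a ratio of 0.455, and other promoters there had a ratio of 0.422. Of 28 that could be set between genotypes, 18 met at least 2-fold fewer, where 55.4% of all chromosome 12 promoters did, and 0 at least 2-fold more, where 0.901% did. Without chromosome 12, 49 promoters of noncoding genes met at least 2-fold fewer, 8.72% against 7.03% of other promoters. At least 2-fold more were then met by 79, 14.1% against 12.8%, so both shares lay near those of other promoters. The ratio of connections in R320* over WT was above 1 on 16 of 22 chromosomes, against 20 of 22 at other promoters, and on the same side of 1 for both on 18. Whether the copy number of chromosomes differed between the R320* and WT cells was not tested.

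**Figure D5:**
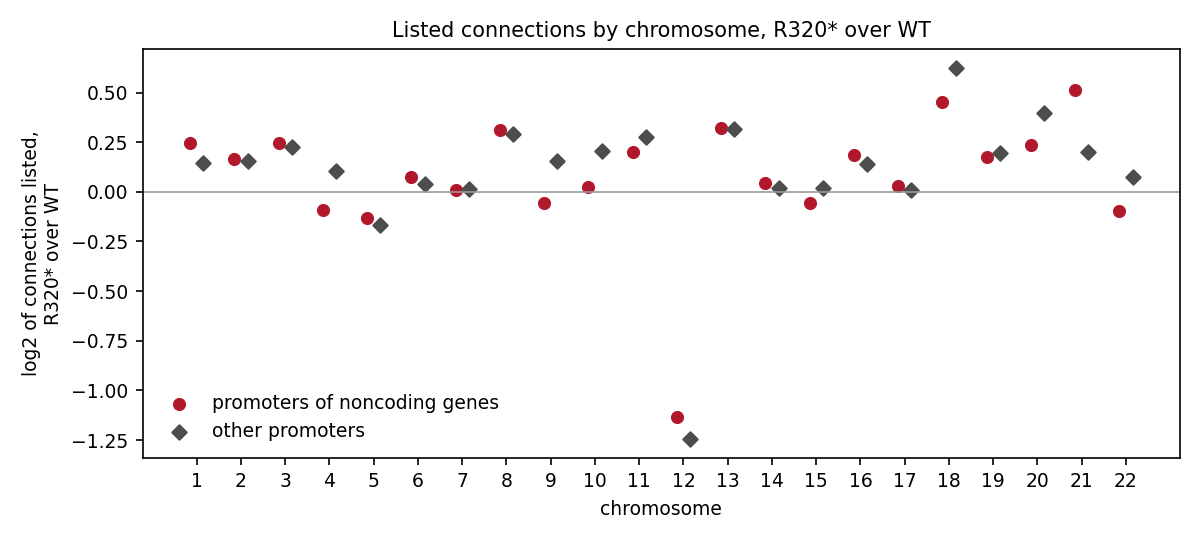
Log2 of listed connections in R320* over WT (y axis) on each of chromosomes 1 to 22 (x axis), for promoters of noncoding genes and for other promoters. Chromosome 12 is lowest for both, with ratios of 0.455 and 0.422.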

How the data were processed

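GRID-seq libraries of K562 cells, 2 with RUNX1 R320* and 2 with WT RUNX1, were assigned by their labelled genotype. Per the submitters' processing notes, cutadapt 1.12, BWA and bedtools were used on hg38. The authors deposited 1 connection score per genotype, and the sources used here give no formula for it. The deposited difference column is the R320* value minus the WT value.

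Numbers of RNAs, shares and score differences were counted with Python 3.11.15, pandas 2.3.3 and scipy 1.17.1 and plotted with matplotlib 3.10.9. Intervals are 95% Wilson intervals. How often the 2-fold rule marks promoters without a change was not tested at the RNA numbers seen here. The table runs through the chromosomes 2 times, and each run was also taken alone. Depth is unknown. Starts of elements count from 0 in the table and from 1 in the text. An own RNA has the exact symbol of the promoter's gene. RNA genes were placed by symbol in a RefSeq gene table. A 2-fold change needed a mean of at least 2 RNAs.

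Named promoters were those with most RNAs, the 6 with the largest and smallest ratio, the 6 with most RNAs in 1 genotype, the 6 largest score differences each way, the 8 highest own-RNA and 6 highest trans scores, the 8 RNAs at most promoters, and a list of known noncoding genes. Sense partners, local neighbours, TTN, RUNX1, KCNQ1OT1, globin RNAs, AC078845.1 and the own RNAs of 1 genotype were added after their values were seen. The members and lists were chosen with earlier results of these data known. Items that may not be named are not reported here.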

Additional observations from a re-analysis of the deposited data

How the results depend on the processing

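Of 71 recalculated values, 50 stayed within the interval of the reported value (counts within 1.5 times), 17 moved and 4 changed sign. Differences are in percentage points, promoters of noncoding genes minus other promoters. Those without AP000769.3, by lncRNA type and for chromosome 12 alone were chosen after seeing the data. The first run of the table through the chromosomes is called block 1 and the second block 2. The share meeting 1 RNA, reported 2.82 points higher, was 0.77 in block 1, -0.83 in block 2, 1.76 under 5000 bp, 1.39 for clone names and 19.2 for antisense names alone. The own-RNA share, reported as -16.0 points, stayed negative in all 12 settings: -8.97 among promoters whose gene was listed as an RNA, -6.68 in block 2, -13.7 for LINC names and -10.7 for antisense names. The trans share, reported 4.14 points higher, was 0.48 without AP000769.3, 1.41 under 5000 bp, 5.61 in block 1, -2.06 in block 2, -0.74 for antisense names and 0 as a difference of medians over promoters. The share of connections in both genotypes, reported as -2.97 points, was 1.22 in block 2. The 79 promoters with at least 2-fold more RNAs in R320* became 135 of 843 with no minimum, 16.0% against 16.2% of other promoters. They became 26 of 230 with a minimum mean of 4 RNAs and 0 of 28 on chromosome 12 alone. The 67 with at least 2-fold fewer became 115 of 843 with no minimum, 13.6% against 11.8%. They became 11 of 230 with a minimum mean of 4 RNAs and 18 of 28 on chromosome 12 alone, the latter 64.3% against 54.1%. With RNAs listed in both genotypes only they became 38 of 553, 6.87% against 5.64%. The median score difference of 0.05 (0.0494) became 0.00992 when centred on that of all connections, 0.0394. The cause of these changes was not tested. By construction many settings let in fewer promoters or connections, and some, such as no minimum of RNAs, let in more. No paired analysis was possible because the table is pooled by genotype. Leaving out a library and a replicate block were not run for the same reason. The unknown depth limits every count, since a connection under the minimum of 1.2 is not listed.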
